A study of Mus musculus with 2 samples.

Results

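Axon guidance ligands and receptors were examined in pancreatic endocrine cells of 1-month-old mice homozygous or heterozygous for a floxed allele of Isl1. Isl1, the target of a conditional deletion, encodes a homeodomain transcription factor with LIM domains that is made in islet cells. The genes were chosen by symbol, as all class 3 to 7 semaphorins, plexins, neuropilins, Eph receptors, ephrins, Robo receptors, Slit ligands, netrins, Unc5 receptors and Dcc. The symbol patterns matched 73 of the 46984 features counted. Among them 3 are antisense transcripts at Plxna4 (Plxna4os1, Plxna4os2 and Plxna4os3) and 2, Unc50 and Unc5cl, match by name alone and are no guidance receptors. The others belong to the named families. No expression value entered the choice. Control animals had the genotype Neurod1 Cre/+; Isl1f/+ and Isl1CKO animals Neurod1 Cre/+; Isl1f/f, so that both carried a Cre allele at Neurod1, which acts in endocrine cells, and at least 1 floxed Isl1 allele. The control was thus heterozygous for the floxed allele and not free of it. Both carried the red reporter tdTomato, and tdTomato+ cells were sorted from islets dissociated with actinomycin D, a blocker of transcription. Each genotype was 1 library of the 10x 3′ kit made from 3 pooled samples. No difference between the genotypes therefore has a replicate check, no p-value is given, and the intervals below are 95% intervals that cover counting error only.

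Sequencing gave 48685758 UMIs in the control library and 86086781 in that of Isl1CKO, where a UMI is a unique molecular identifier and stands for a captured RNA molecule. The filters left 3924 endocrine cells of the control (median 8919 UMIs) and 7339 of Isl1CKO (median 8348 UMIs), and 7 cell barcodes occurred in both libraries. Isl1 transcripts stood at 303 CPM in control and 351 CPM in Isl1CKO endocrine cells without scaling. Which exons are floxed is not given in the sources used here, so these 3′ counts do not test the deletion and the genotype of each library is taken from its label. Isl1CKO cells had few hormone transcripts, with glucagon (Gcg) at 0.127% and somatostatin (Sst) at 0.00855% of UMIs, against 17.4% and 3.11% in control cells. The control pool is labelled males, but 35.6% of its cells with sex-linked transcripts had Xist (female cells) in place of Y-linked UMIs (male cells), against 76.3% in Isl1CKO. The libraries also differed in mitochondrial UMIs (0.632% and 1.55%), in the nuclear RNA Neat1 (10.4 and 56.7 CPM) and in tdTomato (1091 and 5365 CPM), in control and Isl1CKO respectively.

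Control cells were grouped by the hormones that made up at least 5% of their UMIs, which gave 1762 glucagon-only, 724 somatostatin-only, 485 pancreatic polypeptide-only and 195 insulin-only cells, 605 cells with 2 or more hormones and 153 with none. Isl1CKO cells lack most of these hormones. They were grouped as high insulin (447 cells, at least 5% of UMIs) and low insulin (437 cells, 1% to 5%), and the rest by the lineage factors Irx1 and Irx2 of alpha cells and Hhex of delta cells. That gave 2714 Irx cells, 346 Hhex cells, 116 cells with both and 3279 with neither. A level below is in scaled CPM, the UMIs of a gene relative to all summed UMIs of a group in the usual CPM unit, scaled by the TMM method to the control endocrine cells. Ratios are Isl1CKO over control on the log2 scale.

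Guidance molecules steer growing axons by attraction or repulsion, and many of them also act between cells outside the nervous system. Slit proteins bind Robo receptors, netrins bind Dcc and Unc5 receptors, semaphorins bind plexins and neuropilins, and membrane-bound ephrins bind Eph receptors on the neighbouring cell. In pancreatic islets, Robo receptors are known for keeping endocrine cell types in their places, and EphA receptors and ephrin-A ligands for passing signals between beta cells.

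Most guidance genes were near the limit of detection in these cells. Of the 73 genes, 26 reached 5 scaled CPM with at least 20 UMIs in 1 or more of the 12 cell groups, and 24 stayed under 1 scaled CPM in every group. Those 24 include 4 with no UMI in any group, Epha6 and the 3 Plxna4 antisense transcripts. The 26 were 9 of 20 semaphorins, 3 of 9 plexins, 0 of 2 neuropilins, 3 of 5 ephrin-A ligands, 2 of 3 ephrin-B ligands, 2 of 14 Eph receptors, 2 of 4 Robo receptors, 0 of 3 Slit ligands, 1 of 3 netrins, 3 of 4 Unc5 receptors and Unc50. Dcc, the classical netrin receptor, reached at most 0.138 scaled CPM. At least 20 scaled CPM was reached by 8 genes, namely Robo2, Efnb3, Unc5c, Efna5, Efnb1, Plxnb2, Sema3e and Unc50.

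**Figure D1:**
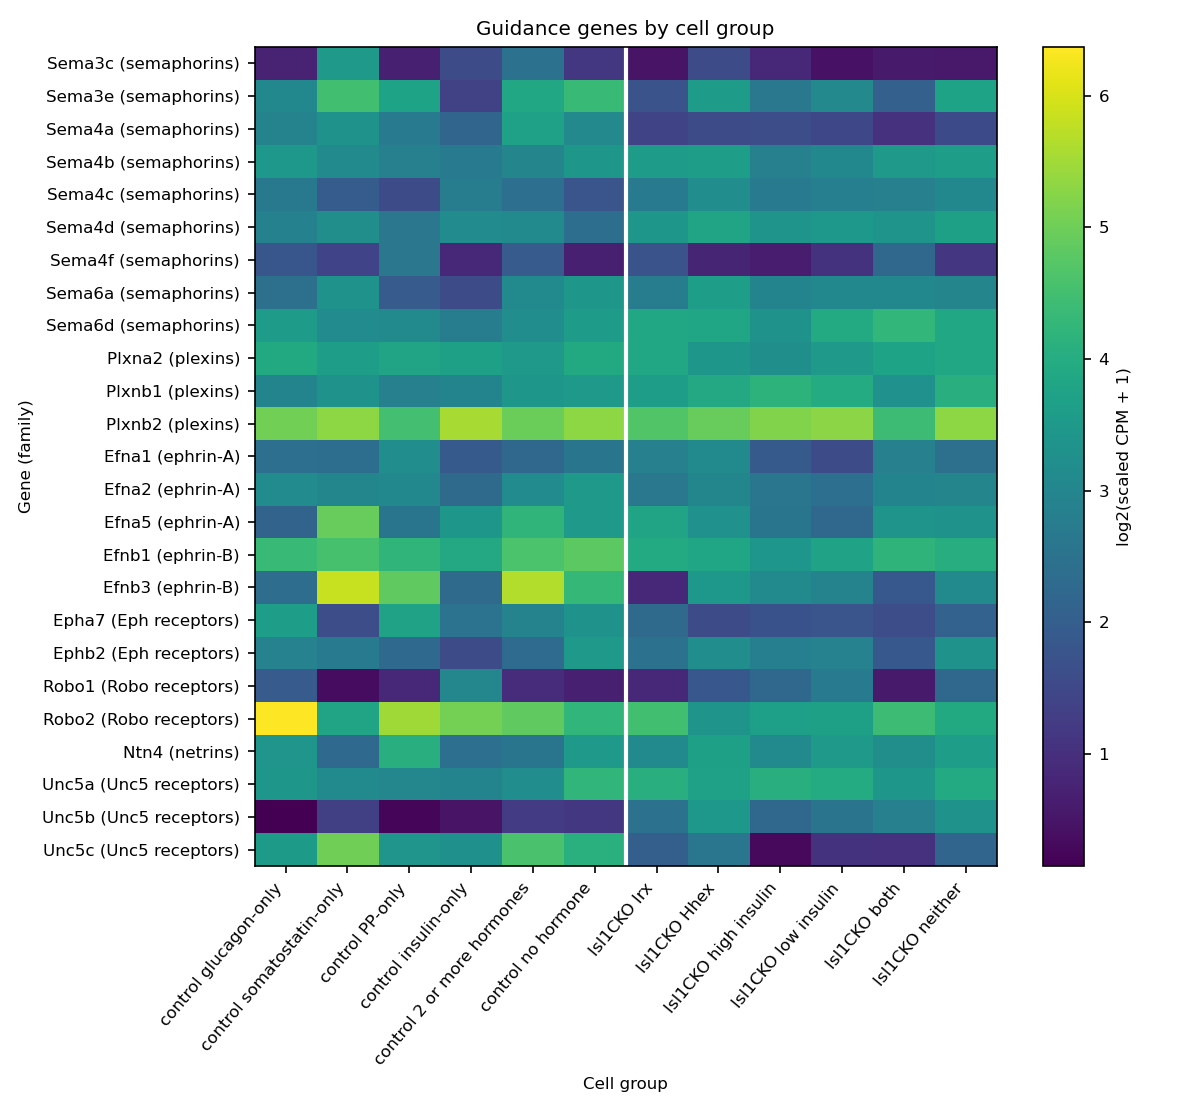
The guidance genes that passed the minimum (Unc50 left out), in rows by family, and the 12 cell groups in columns, control left and Isl1CKO right of the white line, with the colour as log2 of scaled CPM plus 1. Along the Robo2 row the control glucagon-only cells are brightest, along the Efnb3 and Unc5c rows the control somatostatin-only cells are, and Unc5b is darker in each control group than in any Isl1CKO group.

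The stretch upstream of the RefSeq start site was examined for the core recognition letters of LIM-homeodomain and other homeodomain factors, TAAT (ATTA on the other strand). Windows of 250 bases were found for 60 of the 73 genes, by symbol, on GRCm38.p6. The windows shown are those of 3 genes with lower levels in Isl1CKO Irx cells (Robo2, Epha7 and Sema3e) and of Efna5, higher in Isl1CKO Irx cells, and Unc5b, higher over Isl1CKO endocrine cells. They run 5′ to 3′ on the gene's strand and end at the base before the start site, and capitals mark TAAT or ATTA.
Robo2, chr16:74411826-74412075, minus strand: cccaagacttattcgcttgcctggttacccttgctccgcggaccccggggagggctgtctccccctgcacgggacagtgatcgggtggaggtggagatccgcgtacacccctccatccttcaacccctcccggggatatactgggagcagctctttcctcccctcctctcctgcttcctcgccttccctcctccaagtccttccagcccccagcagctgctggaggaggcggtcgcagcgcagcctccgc
Epha7, chr4:28812881-28813130, plus strand: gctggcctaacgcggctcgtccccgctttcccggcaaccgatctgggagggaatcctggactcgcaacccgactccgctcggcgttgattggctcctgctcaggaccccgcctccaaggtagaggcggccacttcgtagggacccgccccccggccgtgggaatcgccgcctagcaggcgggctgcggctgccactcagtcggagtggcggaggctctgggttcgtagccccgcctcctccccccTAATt
Sema3e, chr5:14025026-14025275, plus strand: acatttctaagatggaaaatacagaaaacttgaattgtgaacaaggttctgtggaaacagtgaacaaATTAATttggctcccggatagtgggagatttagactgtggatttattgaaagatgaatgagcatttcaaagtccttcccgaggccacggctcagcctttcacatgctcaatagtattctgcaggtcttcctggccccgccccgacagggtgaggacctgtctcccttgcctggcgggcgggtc
Efna5, chr17:62881318-62881567, minus strand: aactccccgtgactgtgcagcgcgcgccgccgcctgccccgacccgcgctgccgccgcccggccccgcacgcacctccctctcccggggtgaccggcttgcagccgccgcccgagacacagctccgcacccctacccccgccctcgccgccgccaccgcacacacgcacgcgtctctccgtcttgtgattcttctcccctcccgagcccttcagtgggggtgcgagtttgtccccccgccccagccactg
Unc5b, chr10:60831582-60831831, minus strand: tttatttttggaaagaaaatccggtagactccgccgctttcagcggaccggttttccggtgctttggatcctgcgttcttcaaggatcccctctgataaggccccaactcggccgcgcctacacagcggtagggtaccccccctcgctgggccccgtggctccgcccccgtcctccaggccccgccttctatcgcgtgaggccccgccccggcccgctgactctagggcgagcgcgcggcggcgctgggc
None of the 5 windows overlaps an annotated GENCODE exon. Sema3e has 2 matches that overlap each other, Epha7 has 1 directly before its start site, within the longer string CTAATT, and Robo2, Efna5 and Unc5b have 0. Sema4a and Unc5c, also lower in Isl1CKO Irx cells, have 1 match each, and their windows are not shown. The Sema4a match lies within CTAATT. That of Unc5c lies within CTAATG, in a window that overlaps annotated exons. Over the guidance genes, 23 of 60 windows (38.3%) held TAAT, against 54.9% of the 32851 windows of all genes, and the median GC content was 64.8% against 52.4%. The strings CTAATG and CTAATT were in 1 and 4 guidance gene windows and in 6.36% and 7.48% of all windows. These matches describe letters and show no binding. For Efnb3 no window was used.

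Among the 4 single-hormone groups of control islets, 5 guidance genes were highest by 2-fold in somatostatin-only cells. Of 24 guidance genes measured there (5 scaled CPM and 20 UMIs in 1 of these groups), 6 were at least 2-fold higher in 1 group than in each of the other 3, where 6.66% of all 10097 genes measured were. The ephrin Efnb3, the ephrin Efna5, the netrin receptor Unc5c and the semaphorins Sema3c and Sema6a were highest in somatostatin-only cells, a pattern of 2.35% of all genes. Sema3c and Sema6a reached the minimum in these groups through somatostatin-only cells alone, and Sema4f through pancreatic polypeptide-only cells alone, so that the minimum itself favours such a pattern for them and their count is no support for it. Sema4f was highest in pancreatic polypeptide-only cells (0.693% of all genes), at 5.09 scaled CPM on 25 UMIs against 2.51 in the next group. Efnb3, Sema6a and Sema4f were close to the limit, at 2.05-fold, 2.03-fold and 2.06-fold over the next group. With doublets kept, 4 guidance genes were highest in 1 group, where 6.47% of all genes were. No guidance gene was 2-fold higher in glucagon-only (1.59% of all genes) or insulin-only cells (2.02%) than in each of the others. A group differs from the others here by its hormone share, and the cells near the limit of 5% were few for glucagon (13 at 4% to 5% and 11 at 5% to 6%) and insulin (7 and 2) but more for somatostatin (30 and 50) and pancreatic polypeptide (136 and 147).

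Over all endocrine cells, 1 guidance gene was at least 2-fold higher and 5 were at least 2-fold lower in Isl1CKO, out of 23 measured. Levels over all endocrine cells also move with the share of each cell group in a library. The share of all 9885 measured genes was 6.61% higher and 6.13% lower. Unc5b was higher, and Unc5c, Efnb3, Sema4a, Robo2 and Epha7 were lower. The median log2 ratio of the 23 was 0.01, against 0.05 over all genes. In Irx cells against glucagon-only cells, 1 of 21 was higher and 5 were lower, with 7.42% and 6.08% of 9704 genes as background. In Hhex cells against somatostatin-only cells, 3 of 23 were higher and 5 lower (9.46% and 11.5% of 9833 genes), and in high-insulin cells against insulin-only cells 5 of 19 were higher and 3 lower (8% and 5.73% of 9326 genes). The 3 last medians were -0.07, 0.01 and 0.19, against 0.08, -0.04 and -0.00 over all genes. Every guidance gene called higher in these comparisons passed the minimum through the Isl1CKO group alone. Over endocrine cells Unc5c, Sema4a and Epha7, called lower, passed it through control alone. The same held for Unc5c, Sema4a, Epha7 and Sema3e in the Irx comparison. It also held for Unc5c, Sema4a and Sema3c in the Hhex comparison, and for Unc5c and Efna5 between the insulin groups. The minimum itself favours such calls, so the counts of these genes are no support for a difference. Whether the paired groups are the same cell type was not tested, since the Isl1CKO groups were set by factors and the control groups by hormones. Scaling matters most for the higher calls: unscaled CPM raised every log2 ratio by 0.54, 0.38, 0.40 and 1.06 in the 4 comparisons, in the order given.

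**Figure D2:**
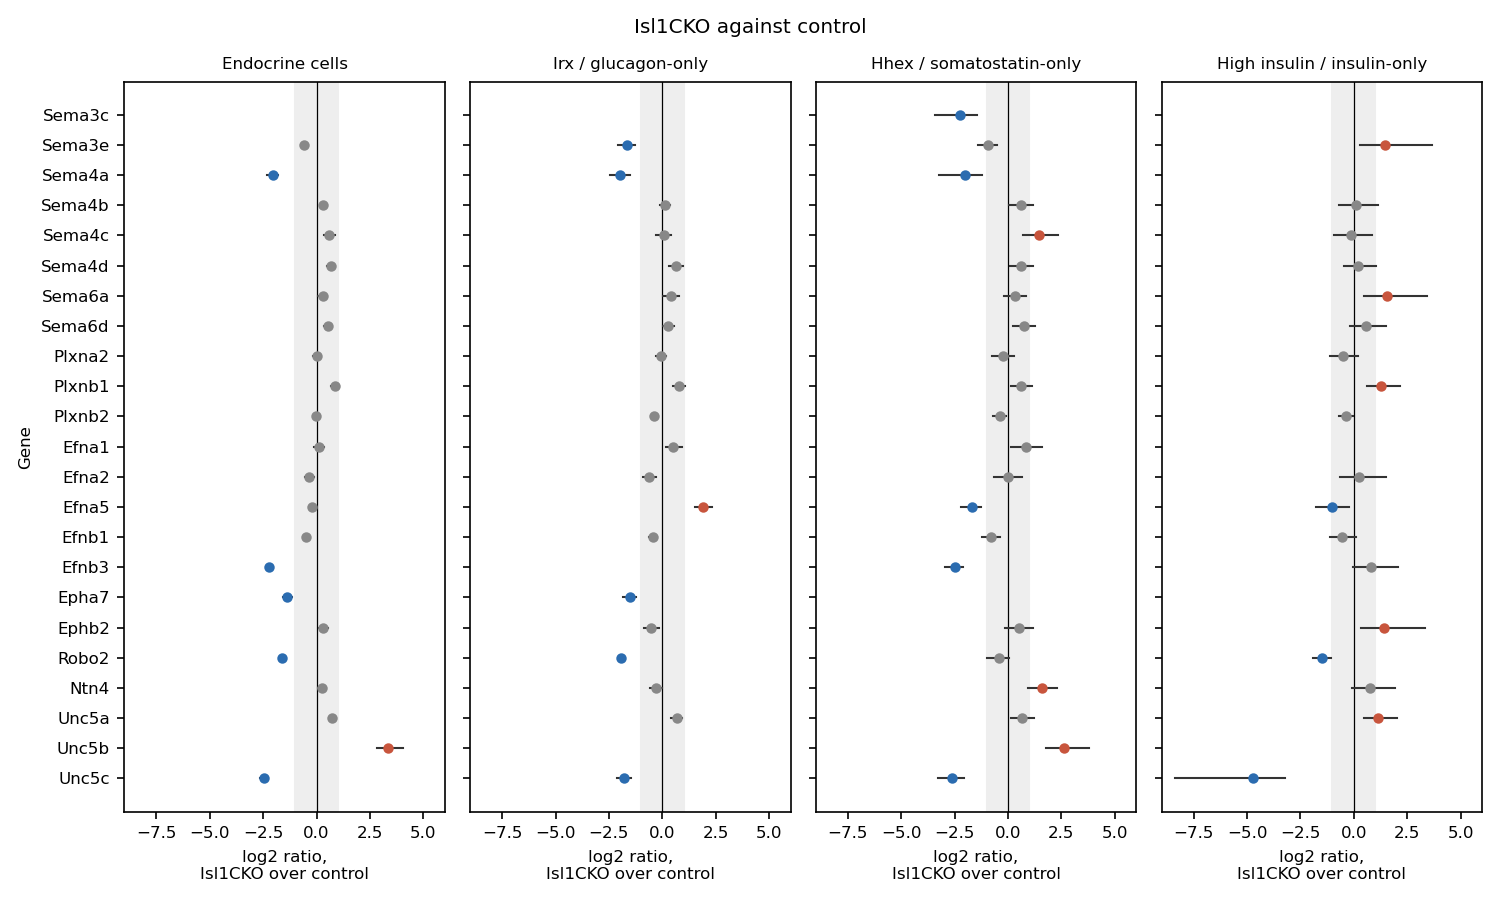
Log2 ratio of Isl1CKO over control for each measured guidance gene, in the 4 comparisons, with its 95% counting interval. Red points are at least 2-fold higher, blue points at least 2-fold lower, and the grey band marks less than 2-fold. Unc5c and Robo2 are blue in 4 and 3 of the panels, and Efna5 is red in Irx cells and blue in Hhex and high-insulin cells. Unc50 is not drawn.

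Robo receptors bind Slit proteins, and Robo2 (ENSMUSG00000052516.17, chr16:73891839-74411825, minus strand) was the one above 10 scaled CPM. In control cells Robo2 stood at 81.7 scaled CPM (77.6 to 86.0) in glucagon-only cells, 43.4 in pancreatic polypeptide-only, 32.9 in insulin-only and 12.8 in somatostatin-only cells. It was at 27.7 in cells with 2 or more hormones and 17.9 in cells with none. The intervals of insulin-only cells (26.2 to 40.8) and of pancreatic polypeptide-only cells (37.7 to 49.6) overlapped, while those of glucagon-only and somatostatin-only cells lay outside all others of the 4 single-hormone groups. In Isl1CKO Robo2 was between 9.42 and 21.5 scaled CPM in all 6 groups, highest in Irx cells and lowest in Hhex cells. The spread of Robo2 between groups was thus narrower in Isl1CKO than in control. Robo2 was lower over endocrine cells (51.8 to 16.7 scaled CPM, log2 ratio -1.64, interval -1.73 to -1.54), in Irx against glucagon-only cells (-1.93) and in high-insulin against insulin-only cells (-1.49). Hhex cells at 9.42 scaled CPM and somatostatin-only cells at 12.8 differed by -0.43 (-0.97 to 0.06), an interval that includes 0. With unscaled CPM the ratio between the insulin groups was -0.44, within 2-fold.

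Robo2 was lower within each sex, at 50.4 and 17.5 scaled CPM in control and Isl1CKO male cells and at 61.6 and 17.8 in female cells. At least 1 Robo2 UMI was found in 50.7% (48.3 to 53.0) of glucagon-only cells and 23.1% (21.6 to 24.8) of Irx cells, and in 23.1% and 9.0% after each cell was thinned to 3000 UMIs. Acinar- and macrophage-like cells of the same libraries, which are no endocrine cells, had a Robo2 UMI in 3 of 30 control cells (10.0%, median 4272 UMIs) and in 6.58% of 152 Isl1CKO cells (median 6671 UMIs). In barcodes too small to be cells, Robo2 was at 28.2 CPM in control and 19.1 CPM in Isl1CKO without scaling. Endocrine cells were at 51.8 and 24.2 CPM on that measure. Robo1, outside the rule for named genes and chosen after its values were seen, was highest in insulin-only cells among the control groups, at 7.13 scaled CPM (4.23 to 11.3) on 18 UMIs. The Slit ligands were all below the minimum. Slit1, also chosen after its values were seen, had 33 of its 47 control UMIs in somatostatin-only cells (4.55 scaled CPM), 0 in glucagon-only cells and 8 UMIs in all Isl1CKO endocrine cells. Slit2 reached at most 1.65 and Slit3 0.138 scaled CPM.

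Ephrins are membrane-bound ligands, and the results turn on Efnb3 and Efna5. Efnb3 (ENSMUSG00000003934.5, chr11:69554092-69560205, minus strand) stood at 57.1 scaled CPM (51.7 to 62.8) in control somatostatin-only cells, 27.7 in pancreatic polypeptide-only, 4.15 in glucagon-only and 3.96 in insulin-only cells. Cells with 2 or more hormones were at 49.1. In Isl1CKO the highest group was Hhex cells, at 9.98 scaled CPM (7.49 to 13.0), and Irx cells were lowest, at 0.837 (0.572 to 1.18). Somatostatin-only cells were thus above glucagon-only cells in control, and Hhex cells above Irx cells in Isl1CKO, each without overlap of the intervals. The log2 ratio was -2.22 over endocrine cells (24.3 and 5.23 scaled CPM), -2.92 in male and -1.53 in female cells, and -2.49 (-2.95 to -2.10) between Hhex and somatostatin-only cells. High-insulin cells were at 7.57 scaled CPM on 66 UMIs, against 3.96 on 10 UMIs in insulin-only cells, with a ratio of 0.82 (-0.03 to 2.06) and of -0.27 in male cells. Of somatostatin-only cells 40.1% had a UMI of Efnb3, and of Hhex cells 13.9%, or 20% and 5.85% after thinning. In the acinar- and macrophage-like cells the unthinned shares were 3.33% in control and 3.95% in Isl1CKO. Barcodes too small to be cells had Efnb3 at 20.9 CPM in control and 8.79 CPM (6.61 to 11.5) in Isl1CKO without scaling. Endocrine cells were at 24.3 and 7.59 CPM on that measure. The part of RNA from outside the cells in the Efnb3 values was not tested.

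Efna5 (ENSMUSG00000048915.12, chr17:62604184-62881317, minus strand), a ligand of EphA receptors held in the membrane by a lipid anchor, was the only guidance gene called in opposite directions in different comparisons apart from Sema3e. In control it stood at 29.4 scaled CPM (25.6 to 33.6) in somatostatin-only cells and at 3.39 (2.60 to 4.35) in glucagon-only cells, with pancreatic polypeptide-only cells at 4.89 and insulin-only cells at 9.90. In Isl1CKO it was 12.8 (11.7 to 13.9) in Irx cells, 8.87 (6.54 to 11.8) in Hhex cells and 4.93 in high-insulin cells. Somatostatin-only cells were higher than glucagon-only cells in control, whereas in Isl1CKO the Irx cells were not below the Hhex cells and their intervals overlapped. The log2 ratio of Irx over glucagon-only cells was 1.89 (1.53 to 2.32), with 1.92 in male and 2.62 in female cells, and that of Hhex over somatostatin-only cells was -1.70 (-2.21 to -1.27). Over all endocrine cells Efna5 was at 11.3 scaled CPM in control and 9.86 in Isl1CKO, a ratio of -0.20. Between the insulin groups the ratio was -1.03 (-1.75 to -0.23), but it was 0.03 with unscaled CPM, -0.75 in male cells and -0.96 with doublets kept.

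The ephrin Efnb1 stood between 13.9 and 27.1 scaled CPM in the 6 control groups and between 9.75 and 17.2 in the 6 Isl1CKO groups, and its log2 ratio was -0.51 over endocrine cells (-0.44 in male and -0.56 in female cells). That ratio was 0.03 with unscaled CPM. Efna1 and Efna2 passed the minimum and were within 2-fold in each comparison in which they were measured. The remaining ephrins, Efna3, Efna4 and Efnb2, reached at most 0.661, 0.522 and 2.90 scaled CPM. Efnb2, below the minimum, had 53 of its 78 control UMIs in glucagon-only cells.

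Of 14 Eph receptors, which are receptor tyrosine kinases, Epha7 and Ephb2 passed the minimum. Epha7 (ENSMUSG00000028289.12, chr4:28813131-28967499, plus strand) was at 11.3 scaled CPM in glucagon-only and 12.2 in pancreatic polypeptide-only control cells, whose intervals overlapped, and at 4.75 in insulin-only and 2.07 in somatostatin-only cells. In Isl1CKO it was between 2.03 and 3.92 in the 6 groups. The log2 ratio was -1.37 over endocrine cells and -1.53 between Irx and glucagon-only cells. Both differences were larger in female than in male cells, which was not tested. Irx and glucagon-only cells were at 1.65 and 13.3 scaled CPM in females (-2.99) and at 8.02 and 10.4 in males (-0.38). Over endocrine cells the ratio was -2.42 in female and -0.41 in male cells, and -0.83 with unscaled CPM. Ephb2 was at 6.19 scaled CPM in high-insulin cells on 54 UMIs, against 1.98 on 5 UMIs in insulin-only cells, a ratio of 1.41 (0.33 to 3.32). The 12 other Eph receptors stayed at or below 3.03 scaled CPM, the value of Epha8.

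**Figure D3:**
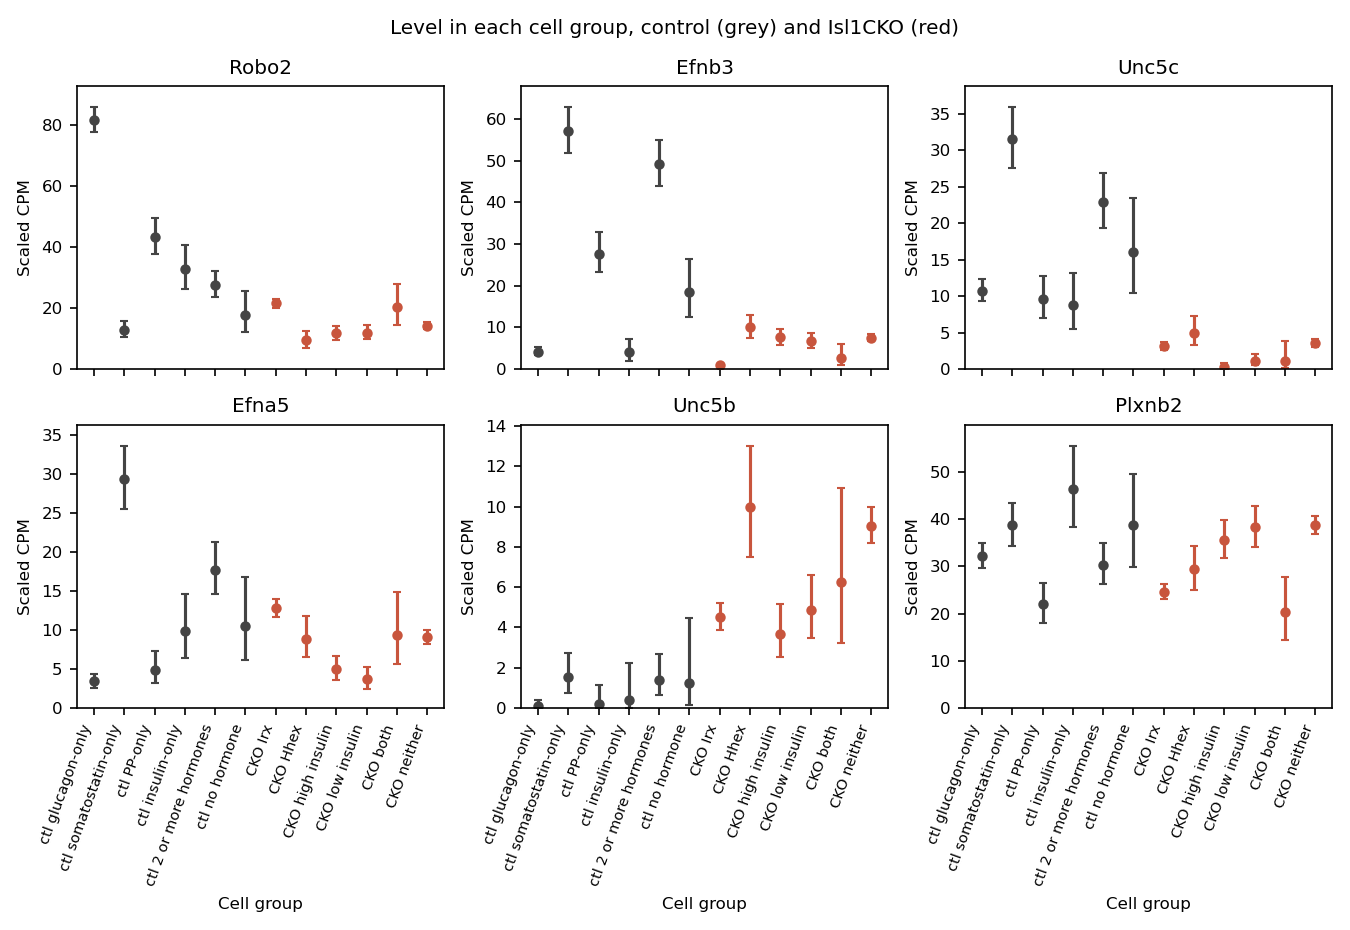
Scaled CPM of 6 guidance genes in each of the 6 control groups (ctl, grey) and 6 Isl1CKO groups (CKO, red), with 95% counting intervals as bars and a separate axis from 0 in each panel. Robo2, Efnb3 and Unc5c have their highest points among control groups, Unc5b among Isl1CKO groups, and Plxnb2 has both genotypes in the same range.

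Unc5 receptors bind netrins and mediate repulsion. Over endocrine cells Unc5c was lower in Isl1CKO, Unc5b was higher, and Unc5a was within 2-fold. Unc5c (ENSMUSG00000059921.15, chr3:141465216-141834924, plus strand) stood at 31.6 scaled CPM (27.6 to 35.9) in control somatostatin-only cells and at 10.7, 9.57 and 8.72 in glucagon-only, pancreatic polypeptide-only and insulin-only cells, whose intervals overlapped. In Isl1CKO its highest group was Hhex cells, at 4.99 (3.29 to 7.26), and its lowest high-insulin cells, at 0.229 on 2 UMIs. No Isl1CKO interval reached those of somatostatin-only or glucagon-only cells. Unc5c was lower in all 4 comparisons. The log2 ratio was -2.46 over endocrine cells (16.5 and 3.00 scaled CPM, -2.51 in male and -2.07 in female cells), -1.79 in Irx cells, -2.62 in Hhex cells and -4.73 (-8.38 to -3.22) in high-insulin cells, where 2 UMIs stood against 22. The share of cells with a UMI of Unc5c was 24.0% in somatostatin-only and 6.65% in Hhex cells, or 10.4% and 2.92% after thinning. It was 6.67% (2 of 30) in the control and 2.63% in the Isl1CKO acinar- and macrophage-like cells.

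Unc5b (ENSMUSG00000020099.7, chr10:60762593-60831581, minus strand) was higher in Isl1CKO, at least 2-fold in female but not in male cells. It had 26 UMIs in all control endocrine cells (0.644 scaled CPM, 0.421 to 0.944) and 707 in Isl1CKO endocrine cells (6.81, 6.32 to 7.33), a log2 ratio of 3.35. In control it was between 0.109 scaled CPM in glucagon-only cells, on 2 UMIs, and 1.52 in somatostatin-only cells, on 11 UMIs. In Isl1CKO the lowest group was high-insulin cells, at 3.67, and the highest were Hhex cells at 9.98 and cells with neither factor at 9.04. Female cells were at 0.672 scaled CPM in control and 10.6 in Isl1CKO (log2 ratio 3.76), and male cells at 0.607 and 0.768 (0.28). The ratio was 3.09 without the Isl1CKO cluster that is led by genes including Neat1. Cells of different sex come from different animals, so sex and animal cannot be told apart. No test of the difference between the sexes was possible, and the male intervals (0.303 to 1.09 in control, 0.475 to 1.17 in Isl1CKO) overlapped, so that the direction in male cells is undetermined.

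The 8 main clusters of Isl1CKO cells, from a joint clustering of both libraries, each held almost only cells of 1 sex. In clusters 1, 3, 4, 5 and 9, with at least 99.8% female cells among those with sex-linked transcripts, Unc5b was at 17.1, 9.71, 21.1, 10.5 and 12.3 CPM without scaling. In clusters 6, 7 and 8, with 1.07%, 0.87% and 2.02% female cells, it was at 1.52, 0.861 and 2.36 CPM. The 2 sets of clusters did not overlap in Unc5b, nor did their intervals. Unc5b was at 6.35 CPM (4.52 to 8.68) in the small barcodes of the Isl1CKO library and at 13.0 CPM (7.42 to 21.1) in its 152 acinar- and macrophage-like cells, where 6.58% had a UMI against 7.58% of endocrine cells. That level in cells of other types is not below the endocrine level, so a share of cells with a UMI says little here, whereas the clusters differed beyond counting error. Markers of endothelial cells, a cell type known for Unc5b, summed to 9.0 CPM in control and 19.8 CPM in Isl1CKO endocrine cells, for 6 genes. Their range was 7.06 to 35.3 CPM in the 6 control groups and 7.31 to 29.7 CPM in the 6 Isl1CKO groups, with Cdh5 at 0 UMIs in all Isl1CKO endocrine cells. Their part in the Unc5b difference was not tested.

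**Figure D4:**
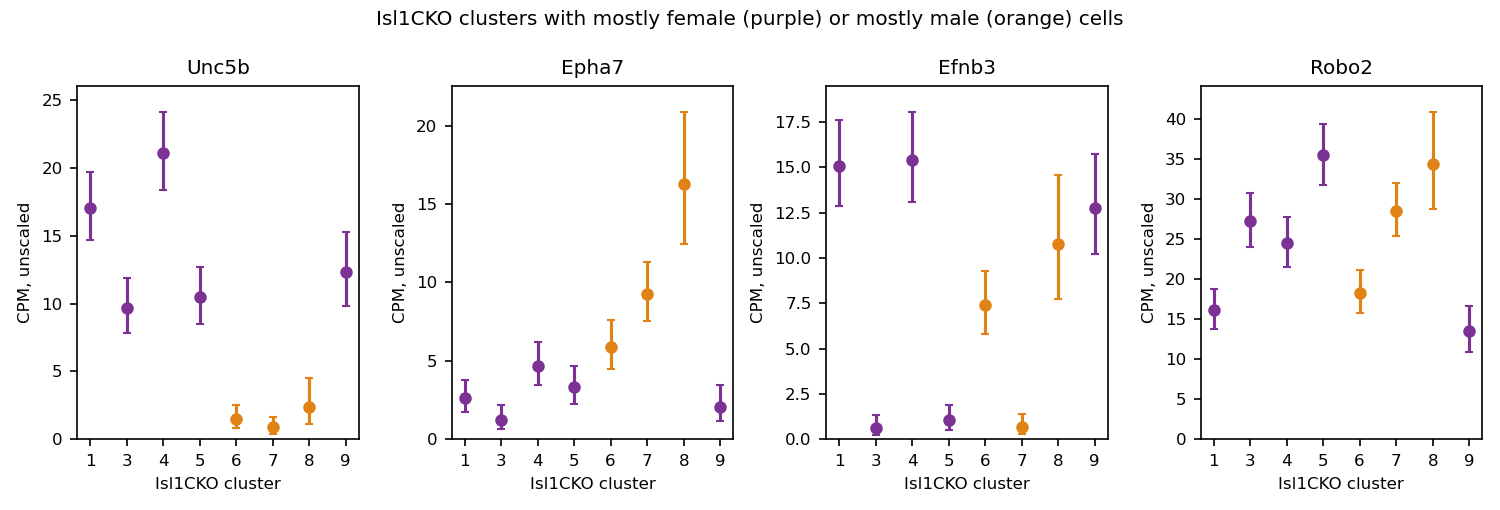
Unscaled CPM of 4 guidance genes in the 8 main Isl1CKO clusters, purple for at least 99.8% female and orange for at most 2.02% female cells, with 95% counting intervals. All 5 purple points lie above all 3 orange points for Unc5b and below them for Epha7, while for Efnb3 and Robo2 both colours span the range.

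In the same clusters Epha7 ran from 1.23 to 4.68 CPM in the female and from 5.86 to 16.3 CPM in the male clusters. Efnb3 did not follow sex. It was at 0.613, 1.04 and 0.67 CPM in clusters 3, 5 and 7, and between 7.38 and 15.4 CPM in the other 5. Clusters 3 and 5, which are female, hold most Irx cells (1010 and 817 of 2714). Robo2 ran from 13.5 to 35.4 CPM in the female and from 18.3 to 34.4 CPM in the male clusters.

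Unc5a had a ratio above 0 in all 4 comparisons and passed 2-fold in 1 of them. It was at 6.73 scaled CPM in insulin-only cells on 17 UMIs and at 15.6 in high-insulin cells on 136 UMIs, a log2 ratio of 1.14 (0.48 to 2.03). When control cells were grouped by the Isl1CKO rule the ratio was 0.85, within 2-fold. The Unc5a ratio was 0.73 (0.57 to 0.90) over endocrine cells, 0.66 in Irx cells and 0.66 in Hhex cells, and over endocrine cells male cells gave 0.94 and female cells 0.70. With unscaled CPM these 3 ratios were 1.27, 1.05 and 1.06. Barcodes too small to be cells had Unc5a at 6.17 CPM in control and 29.0 CPM in Isl1CKO without scaling. Endocrine cells were at 9.17 and 22.1 CPM on that measure. The part of RNA from outside the cells in the Unc5a values was not tested. The netrin Ntn4, a secreted protein of basement membranes, was at 3.86 scaled CPM in somatostatin-only and 11.8 in Hhex cells (1.59, 0.95 to 2.31), but at 15.5 in pancreatic polypeptide-only control cells, above every Isl1CKO group. Ntn1, outside the rule for named genes and chosen after its values were seen, had 1 UMI in control and 85 UMIs in Isl1CKO endocrine cells (0.818 scaled CPM), a log2 ratio of 4.06 (2.53 to 10.37). Its level was under the minimum in every group.

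Semaphorins are secreted or membrane-bound ligands of plexins, and of 20, 9 passed the minimum. Sema4a (ENSMUSG00000028064.17, chr3:88435959-88461182, minus strand) was between 3.57 and 12.1 scaled CPM in the 6 control groups and between 1.04 and 2.06 in the 6 Isl1CKO groups, so that the groups of the genotypes did not overlap, although some of their counting intervals did. The log2 ratio of Sema4a was -2.05 over endocrine cells (-1.28 in male and -2.49 in female cells), -1.96 in Irx cells and -2.04 in Hhex cells. Sema3c, a secreted semaphorin, was at 10.5 scaled CPM in somatostatin-only cells against 1.98 in the next single-hormone group. In Hhex cells Sema3c was at 2.03 on 11 UMIs, a ratio of -2.26 (-3.43 to -1.45). Sema3c was higher in the acinar- and macrophage-like cells of the control library, at 44.8 CPM on 8 UMIs, and at 4.87 CPM in those of Isl1CKO. The sum of 8 acinar markers was 253 CPM in somatostatin-only, 20.7 in glucagon-only and 227 in Hhex cells. The 7 macrophage markers summed to 261, 134 and 100 CPM in these groups, and the 7 stromal markers to 13.9, 9.97 and 0.320 CPM. The part of such cells or their RNA in the Sema3c values was not tested.

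Sema3e (ENSMUSG00000063531.7, chr5:14025276-14256689, plus strand), a secreted ligand of plexin D1, was lower in one comparison and higher in another. In control it was at 21.4 scaled CPM (18.1 to 25.0) in somatostatin-only cells, 12.6 in pancreatic polypeptide-only, 7.33 in glucagon-only and 1.58 in insulin-only cells. In Isl1CKO it was at 11.1 in Hhex cells, 12.6 in cells with neither factor, 5.27 in high-insulin and 2.33 in Irx cells. The ratio of Irx over glucagon-only cells was -1.65 (-2.06 to -1.26), with -1.98 in male and -1.35 in female cells. The ratio of high-insulin over insulin-only cells was 1.44 (0.28 to 3.67), with 46 UMIs against 4, and 0.95 when control cells were grouped by the Isl1CKO rule. Sema6a, a transmembrane semaphorin, was at 6.77 scaled CPM in high-insulin cells on 59 UMIs against 1.98 on 5 UMIs in insulin-only cells (1.53, 0.47 to 3.45). Sema4c was at 8.13 scaled CPM in Hhex cells on 44 UMIs against 2.90 on 21 UMIs in somatostatin-only cells (1.45, 0.71 to 2.31). Sema4b, Sema4d and Sema6d were within 2-fold in all 4 comparisons.

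Among the Isl1CKO high-insulin, Irx and Hhex groups, Sema3e and Unc5b were the 2 of 20 measured guidance genes at least 2-fold higher in 1 group than in each of the other 2, where 4.87% of all 9825 measured genes were. Both were highest in Hhex cells (0.672% of all genes), and no guidance gene was in Irx (2.07%) or high-insulin cells (2.13%). Unc5b reached the minimum among these groups through Hhex cells alone, with 4.50 scaled CPM in Irx and 3.67 in high-insulin cells. The minimum itself thus favours this pattern for Unc5b, and its count is no support for it. Groups outside this comparison were at similar levels, with Sema3e at 12.6 and Unc5b at 9.04 scaled CPM in cells with neither factor, against 11.1 and 9.98 in Hhex cells. Hhex cells with at least 2 Hhex UMIs numbered 64, too few for a gene at the Hhex level of Unc5b or Sema3e to reach 20 UMIs, so that set gives no check of this pattern. There were 282 female and 27 male cells among the Hhex cells, so this pattern for Unc5b also runs along the sex of the cells.

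Plexins are the receptors of semaphorins. None of the 3 measured was 2-fold apart over endocrine cells of both sexes together, in Irx or in Hhex cells. Plxnb2 was between 22.0 and 46.4 scaled CPM in the control groups and between 20.4 and 38.7 in the Isl1CKO groups, with 33.6 and 33.3 over endocrine cells and a log2 ratio of -0.01 (-0.10 to 0.08). Plxna2 was at 13.1 scaled CPM in control and 13.0 in Isl1CKO endocrine cells (-0.00, -0.15 to 0.15), with -0.39 in male and 0.34 in female cells. With unscaled CPM both ratios were 0.53. Plxnb1 was at 6.73 scaled CPM on 17 UMIs in insulin-only and 17.0 on 148 UMIs in high-insulin cells (1.26, 0.61 to 2.15). Its ratio was above 0 in the other comparisons as well, at 0.87 (0.69 to 1.05) over endocrine cells, 0.77 in Irx and 0.63 in Hhex cells. Within the sexes the Plxnb1 ratio over endocrine cells was 0.91 in male cells and 1.12, past 2-fold, in female cells. Barcodes too small to be cells had Plxnb1 at 9.69 CPM in control and 27.5 CPM in Isl1CKO without scaling. Endocrine cells were at 7.86 and 20.9 CPM on that measure. The part of RNA from outside the cells in the Plxnb1 values was not tested. The plexin genes Plxna1, Plxna3, Plxna4, Plxnb3, Plxnc1 and Plxnd1 reached at most 4.70 scaled CPM, the value of Plxna1.

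Neuropilins, the coreceptors of class 3 semaphorins, stayed under the minimum, and their values were chosen after they were seen. Nrp1 had 59 UMIs in control endocrine cells and 3 in Isl1CKO endocrine cells (1.46 and 0.0289 scaled CPM, log2 ratio -5.27, interval -7.98 to -4.04). It was at 0 UMIs in high-insulin cells against 4.75 scaled CPM on 12 UMIs in insulin-only cells. That is 13.8-fold lower if 3 counts stand for the 0, a value that leaves out the counting error of the 12 UMIs. Acinar- and macrophage-like cells held far more Nrp1 than endocrine cells, at 129 CPM in control (23 UMIs) and 27.6 CPM in Isl1CKO. A list of 7 stromal markers moved the same way as Nrp1, at 10.3 CPM in control and 0.377 CPM in Isl1CKO endocrine cells. Its range was 4.04 to 20.8 CPM in the control groups and 0 to 0.67 CPM in the Isl1CKO groups. The highest value was in insulin-only cells, where 6 of the 7 markers were at 0 and Sparc alone had UMIs. Pdgfra was at 0 in both libraries' endocrine cells and Col1a1 also in those of Isl1CKO. Other lists differed in direction between control and Isl1CKO endocrine cells. Endothelial markers were at 9.0 and 19.8 CPM, acinar markers at 98.1 and 143 CPM, and macrophage markers at 149 and 95.7 CPM. The part of such cells or their RNA in the Nrp1 difference was not tested. Nrp2 had 82 control UMIs, of which 34 were in somatostatin-only cells (4.69 scaled CPM) and 1 in glucagon-only cells, and 23 UMIs in Isl1CKO. Unc50, which matches the pattern by name alone, was at 72.4 and 72.8 scaled CPM in control and Isl1CKO endocrine cells.

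Other guidance cues and receptors outside these families, a list of 35 genes, gave 14 measured genes over endocrine cells, of which 2 were at least 2-fold higher and 4 lower, beside the 6.61% and 6.13% of all genes. Tenm1, a teneurin adhesion protein, was at 0.40 and 7.42 scaled CPM in control and Isl1CKO (log2 ratio 4.14), and Rgmb, a repulsive guidance molecule and ligand of neogenin, at 5.23 and 11.2 (1.09). The transmembrane protein Slitrk6 was at 59.2 and 2.25 scaled CPM (-4.71), and it was at 127 in somatostatin-only and 1.85 in Hhex cells. It was at least 2-fold lower in each of the 4 comparisons. The netrin-binding adhesion molecule Dscam was at 6.54 and 0.39 (-4.06), and Tenm2 at 13.0 and 5.87 (-1.14). Chl1, a close homologue of the adhesion molecule L1, had no UMI in Isl1CKO endocrine cells against 5.13 scaled CPM in control. That is 178-fold lower if 3 counts stand for the 0, a value that leaves out the counting error in control. The median log2 ratio of the 14 was 0.12. Tenm1 passed the minimum through Isl1CKO alone, and Slitrk6, Dscam and Chl1 through control alone. The minimum itself favours such calls, so the counts of these genes are no support for a difference.

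Intracellular mediators of guidance signals, a list of 48 genes, gave 36 measured genes with 2 higher and 3 lower over endocrine cells, beside 6.61% and 6.13% of all genes, and a median log2 ratio of 0.02. Srgap1, a protein that binds Robo receptors, was at 13.1 scaled CPM in control and 3.10 in Isl1CKO (-2.07), and its relative Srgap3 at 5.95 and 2.14 (-1.48). The kinase Pak3 was at 96.7 and 23.7 scaled CPM (-2.03), and at 115 in somatostatin-only against 10.9 in Hhex cells. Srgap1 and Pak3 were lower in male (-2.22 and -1.61) and in female cells (-1.98 and -2.29). The exchange factor Vav3 was at 1.07 and 6.04 scaled CPM (2.47). The adaptor Nck2 was at 5.80 and 14.8 scaled CPM (1.34), with a ratio of 1.70 in female and -0.43 in male cells. Vav3 passed the minimum through Isl1CKO alone, and Srgap1 and Srgap3 through control alone, so their counts are no support for a difference. In the 3 other comparisons the minimum can favour calls in these lists in the same way. In Irx cells against glucagon-only cells, 4 of 36 mediators were higher and 4 lower, and 1 of 12 other cues and receptors was higher and 5 were lower, beside 7.42% and 6.08% of all genes. In Hhex cells 5 of 36 mediators were higher and 7 lower, and 3 of 14 other cues and receptors were higher and 4 lower, beside 9.46% and 11.5% of all genes. In high-insulin cells 4 of 34 mediators were higher and 3 lower, and 0 of 12 other cues and receptors were higher and 3 lower, beside 8% and 5.73% of all genes. Srgap1 and Pak3 were among the lower genes in all 4 comparisons.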

How the data were processed

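The deposited files were 2 matrices of UMI counts, 1 per library, with whole-number counts for 46984 features in unfiltered barcodes. The genome build GRCm38.p6 and the tools STAR 2.7.3a with STARsolo, and Seurat 4.3.0.1, are named in the submitters' processing notes, with no role given. No filter or normalization by the authors is in the counts. Gene positions come from GENCODE release M21, matched by unversioned ID.

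Cells needed 1000 UMIs, 500 genes and at most 15% mitochondrial UMIs, which 4219 control and 8231 Isl1CKO cells met. Scrublet, through scanpy 1.11.5, marked 5.12% of control cells at its automatic threshold and 0 of the Isl1CKO cells, where it did not work. The control threshold was therefore used for both and removed 216 and 274 cells. Leiden clustering of both libraries (leidenalg 0.10.2, resolution 1.0) gave acinar-like, macrophage-like and low-depth clusters, which were left out. Doublets of 2 endocrine cells can remain, among them in cells with 2 or more hormones.

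UMIs were summed per group and scaled by TMM (edgeR 4.0.16, R 4.3.3). Log2 ratios used 1 added count and exact conditional Poisson intervals. The script was tested on simulated data. A gene was measured at 5 scaled CPM and 20 UMIs in a compared group, and called at 2-fold by size alone. Named genes are those at 20 scaled CPM in a group or called in a genotype comparison. From the other guidance lists, those called over endocrine cells are named. Male cells had UMIs of Y-linked genes and none of Xist, and female cells the reverse. Small barcodes had at most 100 UMIs. Shares of cells have exact Clopper-Pearson intervals. Members, lists and rules were chosen with earlier results of these data known.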

Additional observations from a re-analysis of the deposited data

How the results depend on the processing

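The counts of called guidance genes were recomputed with other scalings, filters, groupings and within each sex, and 84 such counts were within 1.5 times the reported ones and 28 were not. Without TMM scaling, 6 of 23 measured guidance genes were higher over endocrine cells, 6 of 22 in Irx cells and 9 of 26 in Hhex cells. In high-insulin cells 11 of 19 were higher and 1 was lower. Of 23 measured over the Isl1CKO groups, 5 were highest in 1 of them. Of all genes, 22.7%, 17.2%, 18.9% and 54.5% were then higher in the 4 comparisons, 1.2% were lower in high-insulin cells and 5.04% were highest in 1 of the Isl1CKO groups. With totals taken without the hormone genes, 2 of 24 were higher in Irx cells and 9 of 27 lower in Hhex cells (4.68% and 15% of all genes). With no minimum, where any gene with a UMI counts, 8 of 69 were higher and 23 lower over endocrine cells. In Irx cells 11 and 20 of 67 were, in Hhex cells 12 and 16 of 63, and in high-insulin cells 10 and 13 of 52. Of 66 and 64 guidance genes, 19 and 20 were highest in 1 control or Isl1CKO group. Of all genes, 10.4% were then higher and 16.7% lower over endocrine cells, 10.9% and 17.9% in Irx, 19.4% and 14.3% in Hhex and 8.37% and 15.5% in high-insulin cells, and 11.3% and 12.4% highest in 1 control or Isl1CKO group. In male cells 0 of 21 were higher over endocrine cells and 1 of 11 lower in high-insulin cells (4.56% and 3.71% of all genes). In female cells 2 of 23 were higher over endocrine cells and 2 of 22 in Irx cells, and 3 of 21 were lower in Hhex cells. The shares of all genes were 10.3%, 12.3% and 9.25%. With a hormone limit of 1%, 1 of 16 was lower in high-insulin cells and 1 of 20 was highest in an Isl1CKO group (5.73% and 4.34% of all genes). With at least 2 factor UMIs, 0 of 19 were higher in Hhex cells and 0 of 19 were highest in an Isl1CKO group, on 64 Hhex cells. The shares of all genes were 6.43% and 4.54%. With control cells grouped by the Isl1CKO rule, 3 of 20 were higher in high-insulin cells (7.47% of all genes). Leaving out the Neat1-led cluster, added after seeing the data, kept each count within 1.5 times. Of the recomputed log2 ratios 618 stayed within the counting interval of the reported value, 104 did not. Of the ratios past 2-fold 1 changed sign, that of Efna5 between the insulin groups, which was 0.029 without scaling. Ratios within 2-fold also changed sign, such as that of Efnb1 over endocrine cells without scaling. Male Hhex and female insulin-only cells were too few (27 and 25) for values within those comparisons. No paired analysis was possible because the 2 libraries share a single replicate number. The causes of these changes were not tested, except that few cells leave few UMIs to pass the minimum. Depth limits genes with under 20 UMIs in both groups.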
